A study of Mus musculus with 167 samples.

Results

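Mt1 and Mt2, the metallothionein genes expressed in these livers, are 2 of 39179 genes in the table and were chosen by name. The choice rests on measured values, since both stood higher in Q20 livers than in livers with longer repeats at 6 months. That difference, and the co-variation with stress and acute-phase genes, are therefore given as a description without a test. Messenger RNA was sequenced from the livers of C57BL/6 mice aged 2, 6 and 10 months, in 56, 56 and 55 libraries. Mice were heterozygous for a knock-in Htt allele with a CAG repeat (Q80, Q92, Q111, Q140 or Q175, together called the longer repeats here, or Q20), or were wild type (WT), so each knock-in mouse kept 1 normal allele. The 21 groups of genotype and age held 8 libraries each, with 4 females and 4 males, except that Q80 had 3 females and 5 libraries labelled male at 2 months, and 4 females and 3 males at 10 months. Per the labels, knock-in mice lived with mice of their own line and wild-type mice lived with Q20 mice, so line and housing cannot be told apart for the longer repeats. The p-values measure the spread between these libraries.

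Metallothioneins are small proteins rich in cysteine that bind zinc and copper. In the liver they buffer these metals. Zinc switches their genes on through MTF1, a transcription factor that binds metal response elements in the promoter, and glucocorticoids and inflammatory signals such as interleukin-6 raise them as well. Bulk RNA cannot tell fewer cells of a type from less RNA per cell.

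Both genes lie on the plus strand of chromosome 8 of GRCm38 (GENCODE M21), with 3 exons in the transcript used here. Mt2 (ENSMUSG00000031762) spans chr8:94172664-94173568 and Mt1 (ENSMUSG00000031765) spans chr8:94179082-94180327, with 5513 bases between them. The coding sequences have 183 bases each without the stop codon, and 20 of the 61 codons (32.8%) encode cysteine in either gene. They differ at 38 bases (79.2% identical). They are shown because only reads that cover differing bases tell the genes apart, and the longest run that the whole transcripts share is 20 bases. Capitals mark the bases that differ.
Mt1 coding sequence: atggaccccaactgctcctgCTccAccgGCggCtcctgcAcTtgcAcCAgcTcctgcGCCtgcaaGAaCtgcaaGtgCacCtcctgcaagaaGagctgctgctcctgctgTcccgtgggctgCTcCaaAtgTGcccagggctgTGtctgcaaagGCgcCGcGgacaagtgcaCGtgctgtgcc
Mt2 coding sequence: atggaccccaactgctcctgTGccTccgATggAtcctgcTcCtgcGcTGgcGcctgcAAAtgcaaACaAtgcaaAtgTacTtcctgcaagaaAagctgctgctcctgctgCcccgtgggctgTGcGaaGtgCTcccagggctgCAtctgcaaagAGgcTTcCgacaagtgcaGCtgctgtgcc

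The promoters are shown because the genes varied together from liver to liver. The sequences run from 250 bases before to 30 bases after the gene start in RefSeq (GRCm38.p6, plus strand), at chr8:94178839-94179118 for Mt1 and chr8:94172368-94172647 for Mt2. Capitals mark matches to the core of the metal response element, searched as TGCACNC and TGCGCNC on both strands.
Mt1 promoter: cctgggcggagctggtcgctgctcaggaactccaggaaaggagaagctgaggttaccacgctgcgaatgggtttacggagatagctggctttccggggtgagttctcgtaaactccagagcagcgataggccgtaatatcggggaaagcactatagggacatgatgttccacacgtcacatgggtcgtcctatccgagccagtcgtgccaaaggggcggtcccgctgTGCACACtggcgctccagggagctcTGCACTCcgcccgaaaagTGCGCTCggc
Mt2 promoter: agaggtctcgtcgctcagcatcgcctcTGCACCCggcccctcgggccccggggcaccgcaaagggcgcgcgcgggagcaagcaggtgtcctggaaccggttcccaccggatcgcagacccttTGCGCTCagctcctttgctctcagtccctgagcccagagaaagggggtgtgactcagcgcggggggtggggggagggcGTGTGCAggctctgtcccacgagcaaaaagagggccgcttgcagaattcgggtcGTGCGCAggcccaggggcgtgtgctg

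Mt1 held 3 matches and Mt2 held 4 in the searched window of 300 bases, with no overlap between matches. The window follows the RefSeq start, and GENCODE lists other transcript starts 122 and 152 bases downstream of it for Mt1 and 46 and 242 bases for Mt2, so the counts depend on the start chosen. Among 32851 promoter windows of that length, 25.7% held at least 1 match of either form, 1.97% at least 3 and 0.517% at least 4. The core of the antioxidant response element, TGACNNNGC, occurred in the Mt2 window, as in 12.4% of windows, and not in that of Mt1. The E-box CACGTG, found in 7.15% of windows, occurred in neither. The window ended 50 bases after the RefSeq start, so an element nearer to the later Mt1 starts would be missed. These are matches of letters and not measured binding.

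Libraries held 32025244 to 57151736 counts. Levels are in CPM, which are counts scaled to the library size with TMM factors, and log2 fold changes carry their standard error (SE). The quasi-likelihood test of edgeR was adjusted across the genes of each fit by the Benjamini-Hochberg method, with a threshold of 0.05. Htt, which carries the repeat, averaged 21.3 ± 0.953 CPM in Q175, 31.6 ± 2.75 CPM in Q20 and 26.2 ± 3.68 CPM in WT livers at 6 months (SD, n = 8 each). One library went against its label. The Q80 library of 2 months labelled male M5 had 0 CPM over the Y-linked genes and 317 CPM of Cyp2b13, a cytochrome P450 gene of the female mouse liver. It had 72.4 CPM of Mt1 and 30.5 CPM of Mt2, where the other 28 libraries labelled male had 2.85 to 96.01 CPM of Mt1 and 0.593 to 49.5 CPM of Mt2. Sex differences at 2 months are given with and without it. The WT libraries of 6 months carry another form of library name than the 48 knock-in libraries of that age, so name form and wild type cannot be told apart there.

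Mt1 was the more abundant transcript per length in every liver. The ratio of Mt1 to Mt2 in FPKM (fragments scaled to transcript length and library size, as the authors deposited them) was lowest in the Q20 male M4 of 10 months, at 1.21 (347 FPKM of Mt1 and 286 FPKM of Mt2), and highest in the Q80 male M2 of 6 months, at 8.57 (29.4 FPKM of Mt1 and 3.43 FPKM of Mt2). Mt2 also varied more. Within groups of genotype and sex the SD in log2 CPM was 0.97 for Mt1 and 1.28 for Mt2 at 2 months, 0.92 and 1.40 at 6 months, and 1.14 and 1.64 at 10 months. The other family members were nearly silent. Mt3, known mainly from the brain, was at 0 in 137 libraries and at most 0.144 CPM in the others, and Mt4, known from stratified epithelia, was at 0 in every library.

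Female livers held several times more metallothionein mRNA than male livers at each age, and both genes passed the test each time. At 2 months Mt1 ran from 56.4 to 307 CPM in 27 females, with a median of 149.5, and from 2.85 to 96.01 CPM in 29 libraries labelled male, with a median of 16.4. Mt2 ran from 18.1 to 128 CPM in females (median 69.7) and from 0.593 to 49.5 CPM in males (median 5.61). The ranges overlapped, but 0 males reached the female median of either gene. The log2 fold change of females over males was 2.58 ± 0.27 (adjusted p = 6.06e-12, edgeR) for Mt1 and 2.70 ± 0.34 (adjusted p = 1.33e-09, edgeR) for Mt2, where 29.2% of 14682 genes were higher and 28.9% lower in females. Without the library M5 it was 2.74 (adjusted p = 6.93e-14, edgeR) for Mt1 and 2.88 (adjusted p = 3.62e-11, edgeR) for Mt2.

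At 6 months Mt1 had a median of 149 CPM in 28 females, from 32.4 to 560.1, and of 15.1 CPM in 28 males, from 4.51 to 179. Mt2 had a median of 56.9 CPM in females, from 4.25 to 387, and of 4.27 CPM in males, from 0.878 to 141. Above the female median lay 1 male for Mt1 and 2 males for Mt2. Females exceeded males by a log2 fold change of 2.98 ± 0.28 (adjusted p = 3.61e-13, edgeR) for Mt1 and 3.0 ± 0.39 (adjusted p = 2.79e-09, edgeR) for Mt2, where 31.4% of 15295 genes were higher and 29.8% lower in females.

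At 10 months Mt1 had a median of 131 CPM in 28 females, from 40.8 to 285, and of 22.8 CPM in 27 males, from 3.01 to 204. Mt2 had a median of 47.5 CPM in females, from 7.55 to 178, and of 8.17 CPM in males, from 0.994 to 173. Above the female median lay 2 males for Mt1 and 5 males for Mt2. Above the lowest female lay 7 males for Mt1 and 14 for Mt2, against 5 and 14 at 6 months. The log2 difference of females over males was 1.98 ± 0.32 (adjusted p = 7.46e-07, edgeR) for Mt1 and 1.53 ± 0.48 (adjusted p = 0.00538, edgeR) for Mt2, where 29.2% of 15172 genes were higher and 28.2% lower in females.

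Sex sets apart many genes of the mouse liver, so passing the test does not single out the metallothioneins, but few genes were higher in females by as much. Ranked from the highest log2 fold change down, Mt1 stood 55th, 54th and 128th among the genes tested at the 3 ages, and Mt2 stood 51st, 52nd and 205th. In 7 of 7 genotypes the female mean of Mt1 was the higher one at each age, and the sexes did not overlap in 5, 6 and 3 of the 7 at 2, 6 and 10 months. For Mt2 the female mean was higher in 7, 7 and 6 of 7 genotypes, without overlap in 5, 4 and 2. The exception was Q20 at 10 months, where Mt2 was at 10.3, 17.5, 17.4 and 123 CPM in females and at 1.57, 14.7, 2.16 and 173 CPM in males. The sex difference was not shown to change with age. The value at 6 months minus that at 2 months was 0.22 ± 0.40 (adjusted p = 0.852, edgeR) for Mt1 and −0.08 ± 0.56 (adjusted p = 0.964, edgeR) for Mt2, where 1.01% of genes passed. The value at 10 months minus that at 6 months was −0.87 ± 0.41 (adjusted p = 0.686, edgeR) for Mt1 and −1.12 ± 0.56 (adjusted p = 0.728, edgeR) for Mt2, where 0.0394% passed.

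**Figure D1:**
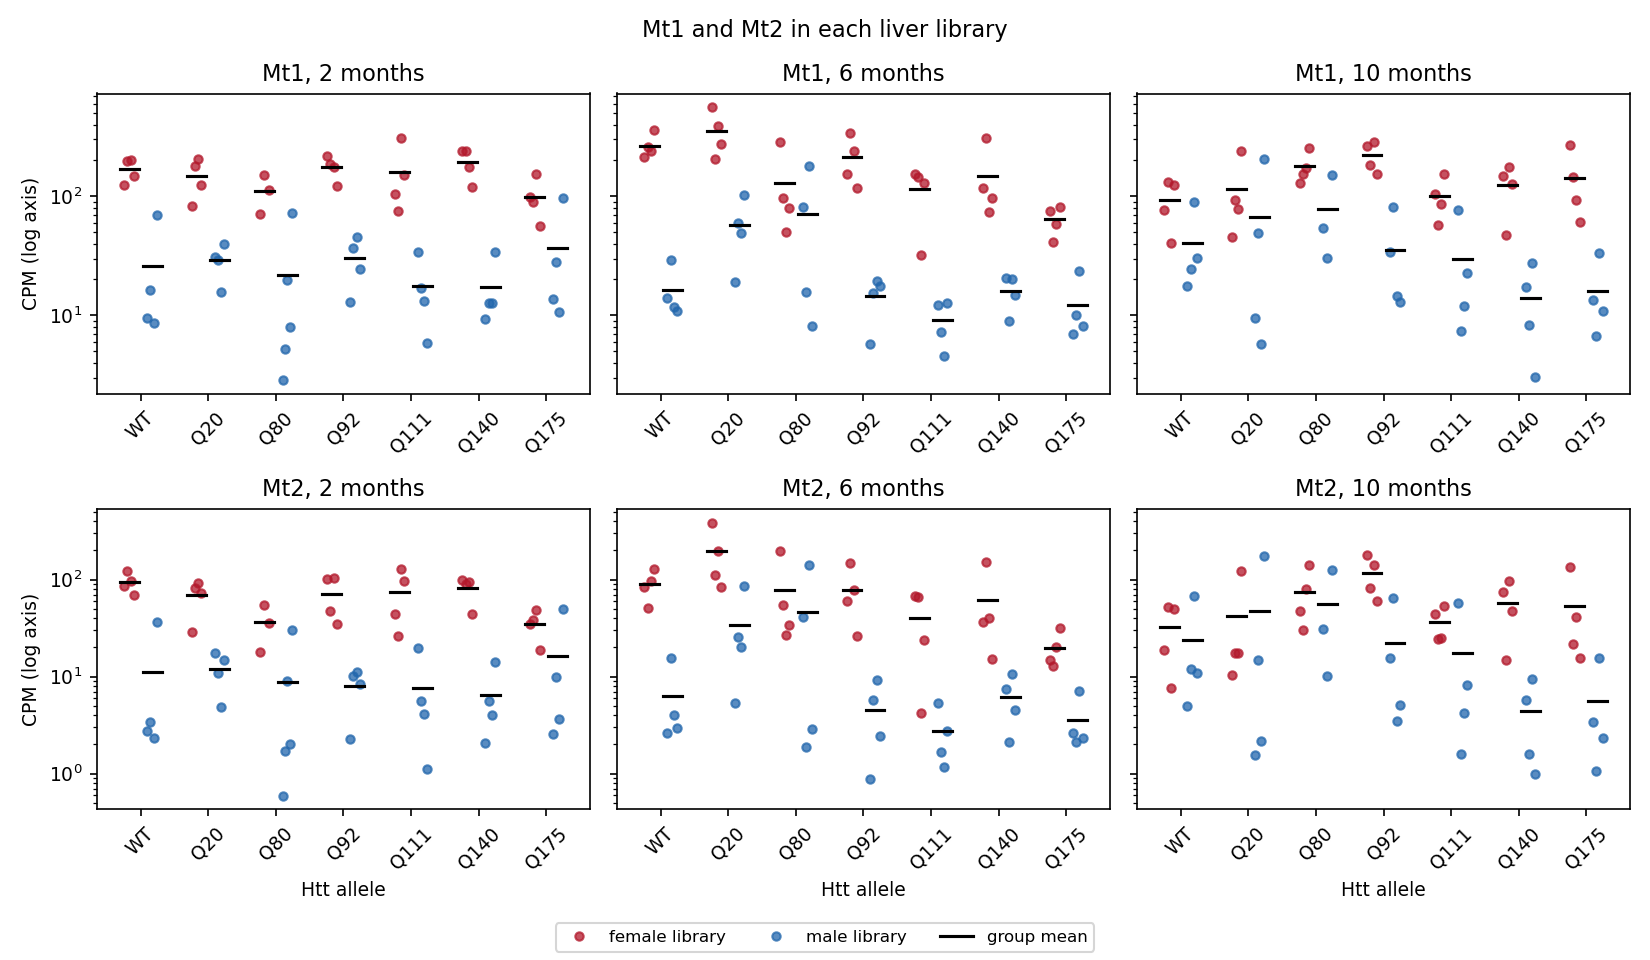
CPM of Mt1 and Mt2 on a log axis in each liver library, by Htt allele and age, with females left of males. Females lie above most males, and at 6 months the Q20 libraries lie above the median of the longer repeats of their sex.

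Genes that handle zinc and copper did not move as a block between the sexes. Of 20 tested, 5 were higher and 6 lower in females at 2 months (median log2 fold change 0.009, against 0.005 over all genes), 5 higher and 6 lower at 6 months (−0.039, against 0.007), and 4 higher and 7 lower at 10 months (−0.011, against 0.013). Slc39a5, a zinc transporter, was higher in females by 2.23 ± 0.17, 1.87 ± 0.16 and 1.61 ± 0.22 on the log2 scale at 2, 6 and 10 months (largest adjusted p = 2.31e-08, edgeR). Its level was low, with a median of 0.363 CPM over all libraries and 1 library at 0. Slc30a10, a manganese exporter of the zinc transporter family, was lower, with −1.09 ± 0.09, −1.19 ± 0.12 and −0.93 ± 0.13 (largest adjusted p = 1.52e-08, edgeR). Over all genes tested, 29.2% were higher and 28.9% lower in females at 2 months, 31.4% and 29.8% at 6 months, and 29.2% and 28.2% at 10 months. Mtf1, the zinc-sensing factor, had −0.05 ± 0.05, −0.24 ± 0.06 and −0.19 ± 0.05 (adjusted p = 0.461, 4.63e-04 and 0.00165, edgeR), so that it was lower in females at 6 and 10 months. Slc30a1, a zinc exporter that MTF1 is known to induce, had 0.05 ± 0.05, −0.01 ± 0.06 and 0.01 ± 0.06 and did not pass at any age.

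The acute-phase genes were split between the sexes. Of 25 tested, 11 were higher and 7 lower in females at 2 months, 5 and 10 at 6 months, and 7 and 8 at 10 months. Over all genes tested, 29.2% to 31.4% were higher and 28.2% to 29.8% lower in females at the 3 ages. Hamp2, a hepcidin gene, was higher by 3.20 ± 0.23, 3.51 ± 0.17 and 3.57 ± 0.20 (largest adjusted p = 1.53e-17, edgeR), and Il1rn, which encodes the interleukin-1 receptor antagonist, by 1.93 ± 0.14, 1.45 ± 0.16 and 1.14 ± 0.17 (largest adjusted p = 7.47e-08, edgeR). Saa1, a serum amyloid A gene, was lower in females, with −1.15 ± 0.48, −3.20 ± 0.74 and −2.88 ± 0.62 (largest adjusted p = 0.0348, edgeR). Of 16 glucocorticoid targets 6, 6 and 6 were higher and 1, 2 and 4 lower, and Fkbp5, a chaperone induced by glucocorticoids, was higher by 1.32 ± 0.20, 1.24 ± 0.16 and 0.99 ± 0.17 (largest adjusted p = 3.61e-06, edgeR). Of the immediate early genes, 8 of 15, 7 of 18 and 4 of 18 were higher and 0, 0 and 1 lower, with Ier3 higher by 1.23 ± 0.12, 1.18 ± 0.13 and 1.26 ± 0.13 (largest adjusted p = 1.97e-11, edgeR). Without the library M5 the counts of the zinc and copper, acute-phase, glucocorticoid and immediate early genes at 2 months were the same, with 16 immediate early genes tested.

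Markers of Kupffer cells, the macrophages of the liver, also moved with sex. Of 17 tested, 16, 17 and 15 were higher in females at 2, 6 and 10 months and 0 were lower, where 29.2% to 31.4% of all genes were higher. Without the library M5 the counts at 2 months were also 16 and 0. Their summed level ran from 374 to 833 CPM in females and 228 to 730.3 CPM in males at 2 months, from 318 to 1396 and 150.4 to 621 CPM at 6 months, and from 333 to 941 and 259 to 668 CPM at 10 months, and each of the 17 was detected in every library. Within groups of the same genotype, sex and age these markers had a median Spearman's rho of −0.0012 with Mt1 and Mt2, over 16 genes and all libraries. Their part in the sex difference was not tested. Clock genes differed between the sexes as well. At 2 months without the library M5, 11 of 17 were higher and 6 lower in females. Over all 14742 genes of that fit, 4381 were higher and 4304 lower. Arntl, Npas2 and Clock had −2.42 ± 0.26, −2.28 ± 0.33 and −1.17 ± 0.06 on the log2 scale. Per2 and Per3 had 1.28 ± 0.15 and 1.62 ± 0.12. The part of the clock genes in the metallothionein difference was not tested either.

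At 6 months Q20 livers had more metallothionein mRNA than most livers with longer repeats, which is the difference that chose these genes. In females Mt1 had a median of 107 CPM with longer repeats (n = 20, 32.4 to 338), against 560.1, 207, 386 and 273 CPM in Q20. In males it had a median of 13.8 CPM with longer repeats (n = 20, 4.51 to 179), against 19.2, 59.5, 48.7 and 103 CPM in Q20. The groups overlapped, but each of the 8 Q20 livers lay above the median of the longer repeats of its sex.

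Mt2 in females had a median of 35.05 CPM with longer repeats (4.25 to 198), against 387, 112, 199 and 84.5 CPM in Q20. In males it had a median of 2.82 CPM with longer repeats (0.878 to 141), against 5.36, 25.5, 19.96 and 85.4 CPM in Q20. The Q20 female F1 was the highest library of the series for both genes. Fitted over both sexes, the longer repeats over Q20 gave −1.53 ± 0.33 for Mt1 and −2.07 ± 0.43 for Mt2 on the log2 scale. Of the 15295 genes tested, 13.1% were past the threshold in either direction and 8.34% were lower, and 2 of 2 members were among those lower, from which nothing is read.

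By allele, Mt1 in females averaged 266 ± 63.6, 356 ± 155, 129 ± 108, 212 ± 98.7, 115 ± 55.99, 148 ± 106 and 64.03 ± 17.99 CPM in WT, Q20, Q80, Q92, Q111, Q140 and Q175 at 6 months (SD, n = 4 each). In males it averaged 16.4 ± 8.53, 57.6 ± 34.8, 70.9 ± 79.01, 14.5 ± 6.05, 9.15 ± 3.95, 16.1 ± 5.49 and 12.2 ± 7.62 CPM in the same order of alleles. Q20 had the highest and Q175 the lowest female mean, and Q80 the highest and Q111 the lowest male mean. Mt2 averaged 90.1 ± 31.7, 196 ± 137, 78.2 ± 80.8, 78.6 ± 52.1, 40.3 ± 31.4, 60.95 ± 61.8 and 19.8 ± 8.51 CPM in females and 6.27 ± 6.13, 34.1 ± 35.3, 46.8 ± 65.5, 4.56 ± 3.70, 2.74 ± 1.86, 6.18 ± 3.69 and 3.53 ± 2.39 CPM in males. Its order had the same ends. Of the neighbours in these 4 rankings, Q20 and WT males differed in Mt1 by more than the larger SD of the pair, and the other neighbours did not. The high male mean of Q80 came from 2 of its 4 males, with Mt1 at 80.8, 15.8, 179 and 8.07 CPM.

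Markers of immune cells were also lower in the comparison that chose the genes. Of 17 Kupffer cell and macrophage markers 16 were lower with longer repeats than in Q20 at 6 months (median log2 fold change −0.73). The same held for 5 of 5 neutrophil markers that could be tested (median −1.31). Over all genes tested 8.34% were lower, and nothing is read from these counts. The Kupffer cell sum ran from 318 to 776 CPM in females with longer repeats, against 782 to 1396 CPM in Q20 females, and from 150.4 to 621 CPM in males with longer repeats, against 452 to 563 CPM in Q20 males, so that it did not overlap in females and did in males. The sum of 12 neutrophil markers was near 0, at most 8.83 CPM in these groups, and Ly6g, a defining one, was at 0 in 160 of all libraries. The part of these cells in the metallothionein values was not tested. With F1, F3 and F4 of the Q20 females left out, 36 genes passed in place of 2007, while the log2 fold changes were −1.51 for Mt1 and −2.10 for Mt2. In females alone they were −1.54 and −2.0, and in males alone −1.69 and −2.36. Leaving out F1, F3 or F4 singly left 1128, 1320 and 1146 genes. How many of the immune cell markers passed in these fits was not counted.

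Related genes are described in the comparison that chose the metallothioneins, where 13.1% of all genes tested were past the threshold and 8.34% were lower, and nothing is read from their counts. Of 20 zinc and copper genes 2 were lower with longer repeats, with −0.17 ± 0.05 for Slc31a2, a copper transporter, and −0.40 ± 0.12 for Atp7a, a copper-transporting ATPase. Of 25 acute-phase genes 2 were lower, with −0.52 ± 0.17 for Steap4, a metalloreductase, and −0.66 ± 0.21 for Il1rn, the interleukin-1 receptor antagonist. Of 18 cytokine-response genes 3 were lower, with −1.15 ± 0.27 for Il1b, which encodes interleukin-1 beta, −0.44 ± 0.12 for Osmr, an oncostatin M receptor subunit, and −1.23 ± 0.35 for Socs3, an inhibitor of cytokine signalling. Of 18 immediate early genes 3 were lower, among them Klf4, a zinc finger transcription factor, with −0.82 ± 0.18. Saa1 and Lcn2 had −0.93 ± 0.78 and −1.53 ± 0.74, not past the threshold. No glucocorticoid target of 16 and no chaperone of 14 passed.

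The comparison of Q20 with WT at 6 months rests on the same Q20 libraries that chose the genes, so its values are a description, with no test. Mt2 was at 387, 112, 199 and 84.5 CPM in Q20 females, against 83.96, 51.2, 97.8 and 128 CPM in WT females, and at 5.36, 25.5, 19.96 and 85.4 CPM in Q20 males, against 2.65, 15.4, 4.05 and 2.95 CPM in WT males. The groups overlapped in both sexes. Q20 over WT gave 1.73 ± 0.66 on the log2 scale for Mt2 and 1.04 ± 0.48 for Mt1. Of all genes tested, 17.4% were higher in Q20 and 31.6% passed in either direction. The WT libraries of this age carry another form of library name than the Q20 libraries, so allele and name form cannot be told apart. Over the alternatives the value of Mt2 ran from 1.13 in females alone to 2.44 in males alone, and without the Q20 male M4 it was 1.27. Of 17 Kupffer cell and macrophage markers 13 were higher in Q20 than in WT (median log2 fold change 0.74), and their part in the Mt2 value was not tested.

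The comparison of the longer repeats with WT at 6 months shares the libraries with longer repeats with the one that chose the genes, and is given without a test too. The log2 fold changes were −0.49 ± 0.36 for Mt1 and −0.35 ± 0.49 for Mt2, where 31.4% of genes passed. Allele and name form cannot be told apart in this comparison either. In females Mt1 was at 32.4 to 338 CPM with longer repeats, against 213, 257, 238 and 358 CPM in WT, so that the groups overlapped. Fitted in females alone it had a log2 fold change of −1.10, and in males alone 0.12. The difference between the sexes in this contrast, females minus males, was −1.22 ± 0.66 for Mt1 and −0.93 ± 0.98 for Mt2, where 0.00639% of genes passed. In Q20 against WT it was −1.37 ± 0.85 and −1.30 ± 1.24. At 2 and 10 months these differences by sex did not pass for either gene, with −0.10 ± 0.72 and −0.41 ± 0.90 for the longer repeats at 2 months, 1.17 ± 0.84 and 1.75 ± 1.20 at 10 months, −0.35 ± 0.93 and −0.56 ± 1.15 for Q20 at 2 months, and −0.43 ± 1.07 and −0.60 ± 1.51 at 10 months. Over all genes edgeR called 0.00637% for the longer repeats at 10 months. In the other 3 of these contrasts it called 0 genes, with 792, 243 and 197 at an unadjusted p under 0.05 for the longer repeats at 2 months, Q20 at 2 months and Q20 at 10 months, where DESeq2 called 1, 1 and 5.

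At 2 months the Q20 livers did not stand apart. Mt1 was at 56.4 to 307 CPM in females with longer repeats, against 82.4, 180.3, 205 and 125 CPM in Q20 females, and at 2.85 to 96.01 CPM in males with longer repeats, against 30.7, 29.4, 15.6 and 39.9 CPM in Q20 males. Each Q20 value lay within the range of the longer repeats of its sex. On the log2 scale the longer repeats over Q20 gave −0.12 ± 0.36 (adjusted p = 0.925, edgeR) for Mt1 and −0.27 ± 0.44 (adjusted p = 0.857, edgeR) for Mt2, where 0.0204% of genes passed. Over WT they gave −0.14 ± 0.36 (adjusted p = 0.905, edgeR) and −0.47 ± 0.43 (adjusted p = 0.681, edgeR), where 0.0613% passed. Q20 over WT gave −0.02 ± 0.47 (adjusted p = 0.999, edgeR) and −0.20 ± 0.58 (adjusted p = 0.999, edgeR). In that comparison edgeR called 0 genes (0.0%), 438 had an unadjusted p under 0.05, and DESeq2 called 1.

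At 10 months Mt1 was at 47.5 to 285 CPM in females with longer repeats, against 45.2, 92.4, 77.7 and 242 CPM in Q20 females, and at 3.01 to 149.5 CPM in males with longer repeats, against 9.41, 49.2, 5.76 and 204 CPM in Q20 males. The Q20 male M4 was above the range of the longer repeats, and the Q20 female F1 was below it. The longer repeats over Q20 gave log2 fold changes of −0.50 ± 0.43 (adjusted p = 0.752, edgeR) for Mt1 and −0.68 ± 0.62 (adjusted p = 0.770, edgeR) for Mt2, where 0.033% of genes passed. Over WT they gave 0.08 ± 0.44 (adjusted p = 0.999, edgeR) and 0.15 ± 0.64 (adjusted p = 0.999, edgeR), where 0.0198% passed, and Q20 over WT gave 0.58 ± 0.56 (adjusted p = 1, edgeR) and 0.83 ± 0.81 (adjusted p = 1, edgeR), where 0.00659% passed. Without the Q20 male M4 the longer repeats over Q20 gave 0.41 and 0.88, and Q20 over WT gave −0.39 and −0.86, so that 1 library set the sign of both. By mean, Q92 was highest and WT lowest in females for both genes, with Mt1 at 222 ± 63.2 and 93.6 ± 42.9 CPM (SD, n = 4 each), and 0 of the neighbours in the rankings of that age differed by more than the larger SD of the pair.

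**Figure D2:**
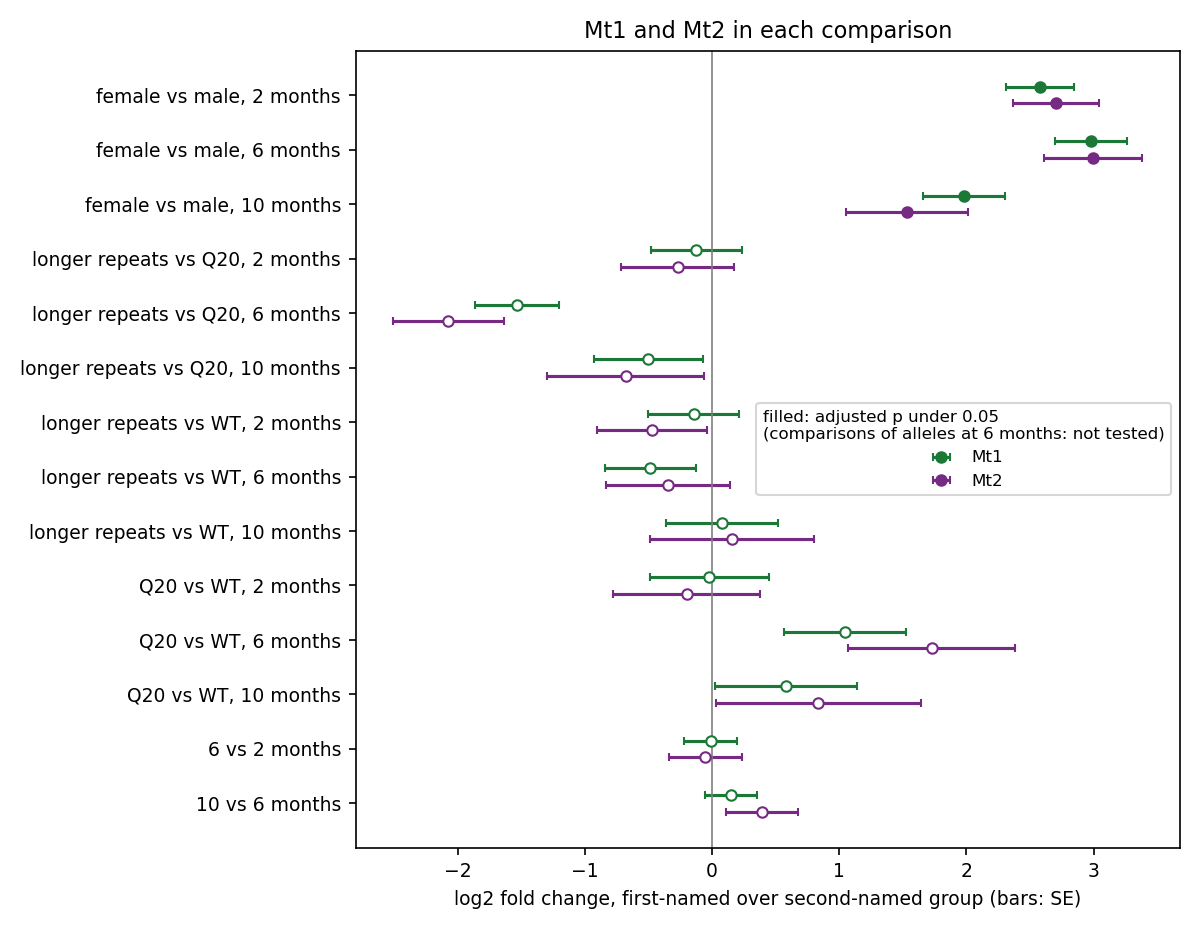
Log2 fold changes of Mt1 and Mt2 with their SE in each comparison, the first-named group over the second. The sex differences lie between 1.53 and 2.995, and the longer repeats over Q20 at 6 months are at −1.53 and −2.07. The comparisons of alleles at 6 months are drawn open, without a test, since their libraries chose the genes.

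Between ages neither gene passed. Values at 6 months over 2 months were −0.01 ± 0.21 (adjusted p = 0.966, edgeR) for Mt1 and −0.05 ± 0.29 (adjusted p = 0.897, edgeR) for Mt2, where 49.8% of 15139 genes passed, and at 10 months over 6 months they were 0.15 ± 0.20 (adjusted p = 0.565, edgeR) and 0.39 ± 0.29 (adjusted p = 0.246, edgeR), where 52.7% passed. The knock-in libraries of 6 months carry another form of library name than those of the other ages, while WT libraries carry the same form at every age. Age and name form therefore cannot be told apart within the knock-in lines. The ages were not fitted in WT alone.

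Within groups of the same genotype, sex and age, Mt1 and Mt2 were high and low in the same livers. Over the deviations from the group means in log2 CPM, Pearson's r was 0.963, 0.925 and 0.964 and Spearman's rho 0.93, 0.903 and 0.95 at 2, 6 and 10 months (n = 56, 56 and 55). The two-sided permutation p was 1e-05 for each of these 3 relations, before and after Benjamini-Hochberg adjustment, the smallest that 100000 permutations can give. Without the 2 libraries farthest from the median r was 0.952, 0.913 and 0.96, and without the library M5 it was 0.957 at 2 months.

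**Figure D3:**
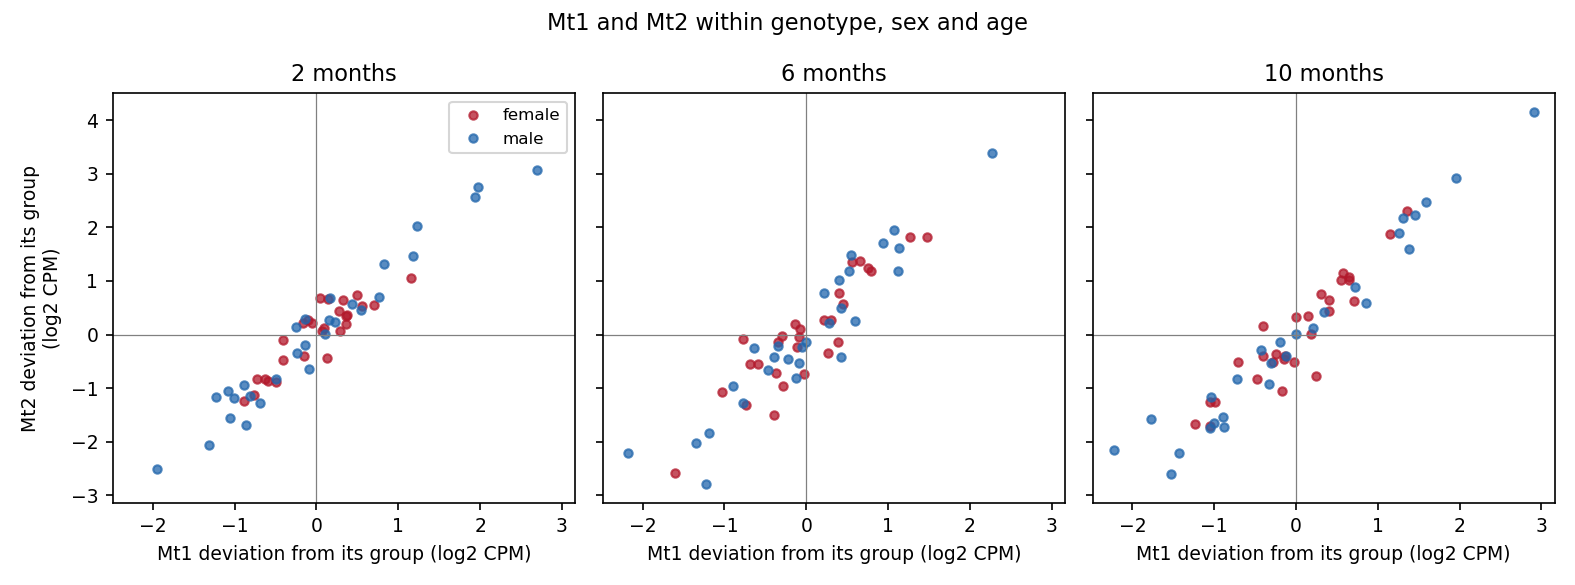
Deviation of Mt2 against that of Mt1 from the mean of the same genotype, sex and age, in log2 CPM, 1 point per library. The points lie along a line at each age, with Pearson's r of 0.963, 0.925 and 0.964.

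The genes whose deviations were most like those of the metallothioneins included acute-phase and other secreted liver proteins. Likeness is the mean of Spearman's rho with Mt1 and with Mt2 over all libraries, a description without a test, among 10918 genes whose mean log2 CPM reached 1. The median rho of those genes was −0.0014. Both sides of each relation come from the same library and share its depth. Il1rn was first, with 0.56 (0.38, 0.67 and 0.56 at 2, 6 and 10 months). Lcn2, which encodes lipocalin-2, an acute-phase protein that binds bacterial iron carriers, had 0.50 (0.39, 0.43 and 0.58). The kininogen genes Kng2 and Kng1 had 0.49 and 0.49, and the serum amyloid gene Saa2 had 0.48. Then came Aqp11, an aquaporin (0.48), Saa1 (0.48), Tmem176b, a membrane protein (0.47), Slc43a1, an amino acid transporter (0.47), and Srrm4, a splicing regulator (0.47). Each of these 10 had a rho above 0 at each age.

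At the other end stood Abcb10, a transporter of the inner mitochondrial membrane, with −0.51 (−0.52, −0.47 and −0.55 at 2, 6 and 10 months), followed by Atrn (−0.44), which encodes attractin, 4930402H24Rik (−0.44) and Tsc22d1 (−0.44). Abcb10 was also lower in females than in males, with log2 fold changes of −0.60 ± 0.04, −0.65 ± 0.04 and −0.65 ± 0.04 at 2, 6 and 10 months (largest adjusted p = 3.23e-18, edgeR). Without the library M5, 9 of the 10 genes with the highest rho remained among the first 10, and 3 of the 5 with the lowest remained among the last 5.

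The acute-phase list stood highest. Of its 26 genes 25 could be compared, and 25 of 25 had a rho above 0, with a median of 0.35, where 5411 of all 10918 genes did. Of the 25, 21 were above 0 at all 3 ages, and 2387 of all genes were. The fibrinogen genes Fgb and Fgg, of the clotting protein, had 0.39 and 0.39 over all libraries, with 0.66 and 0.65 in females and 0.24 and 0.24 in males. Serpina3n, a protease inhibitor, had 0.31 in females and 0.56 in males. The lowest values of the list were those of Crp (0.10), which encodes C-reactive protein, and of the hepcidin genes Hamp (0.09) and Hamp2 (0.08). Hepcidin is the hormone that limits iron uptake. The differences between the sexes were not tested.

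Immediate early genes, which respond to stimuli early and briefly, had 10 of 10 values above 0 and a median of 0.24. Btg2, a growth inhibitor, had −0.07, 0.55 and 0.55 at 2, 6 and 10 months, Ier2 had 0.15, 0.45 and 0.49 and Junb, an AP-1 subunit, had 0.12, 0.41 and 0.47. Of 16 cytokine-response genes 14 were above 0, with a median of 0.19. Cxcl1, a chemokine, had 0.06, 0.52 and 0.52 at the 3 ages, Nfkbiz, a regulator of NF-kB target genes, had 0.14, 0.50 and 0.48 and Socs3 had −0.01, 0.51 and 0.40. For these 6 genes the value at 2 months was the lowest of the 3.

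Lists of other stress responses had medians nearer 0 or below it. The median was 0.10 for 13 glucocorticoid targets, led by Klf9 (0.26) and Fkbp5 (0.25), 0.04 for 9 genes of the ATF4 amino acid stress response, and −0.09 for 15 fasting-response genes. It was −0.09 for 16 genes of the NRF2 and oxidative stress list, of which 3 were above 0, led by Hmox1, which encodes heme oxygenase (0.11). Of 13 cytosolic heat shock chaperones 1 was above 0, and the median was −0.12. Within the sexes the chaperone Hsp90ab1 had −0.47 in females and 0.04 in males, and Hspb1 had −0.53 and 0.04. That difference was not tested either.

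Zinc and copper genes were mixed, with 9 of 19 above 0 and a median of −0.03. The highest were Slc39a14 (0.32), a zinc importer of hepatocytes that interleukin-6 is known to induce, Slc39a1 (0.31), another zinc importer, and Cp (0.26), which encodes ceruloplasmin. The lowest was Slc39a10 (−0.36), also a zinc importer. Mtf1 had −0.12 and Slc30a1 had 0.07. The median was 0.13 for 15 clock genes, led by Per3 (0.26) and Dbp (0.24), 0.0019 for 12 hepatocyte markers and −0.02 for 5 red cell markers.

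**Figure D4:**
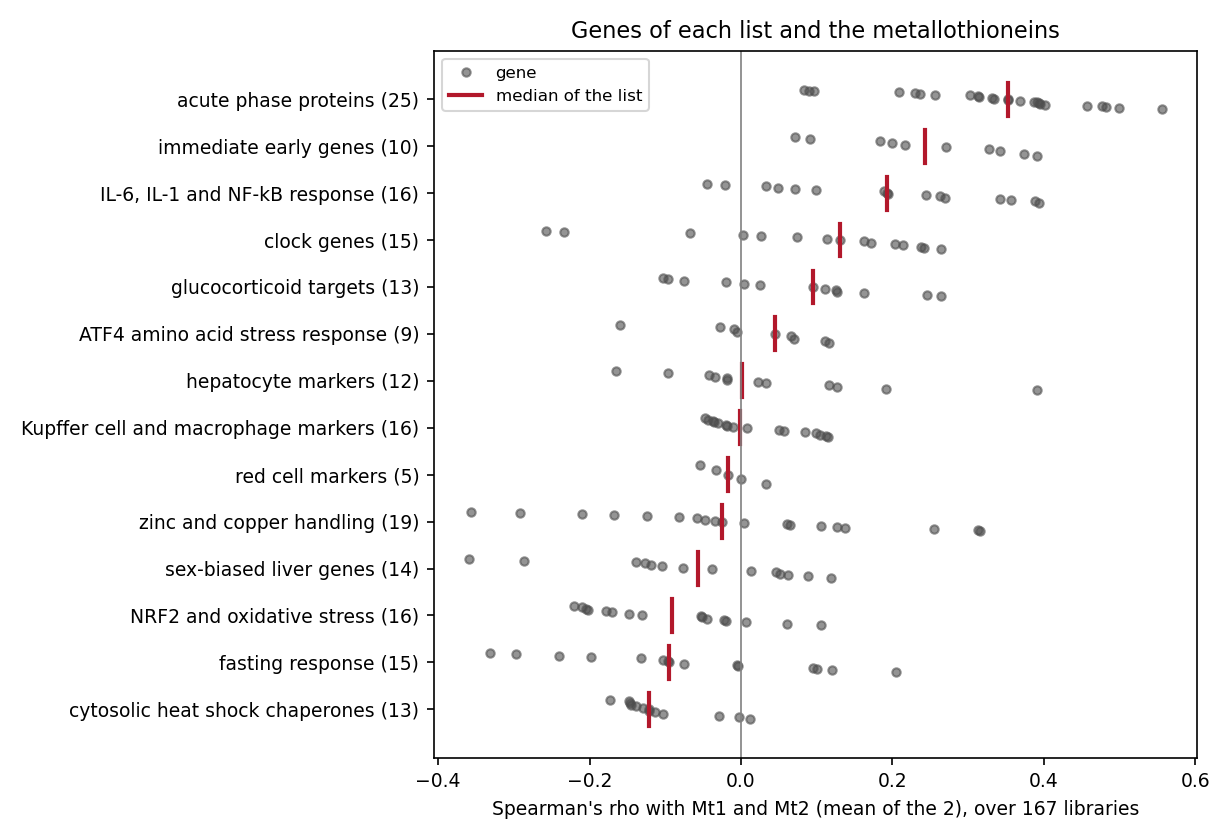
Spearman's rho of each gene with Mt1 and Mt2 over all libraries, after removal of the means of genotype, sex and age, by list. The acute-phase proteins have the highest median, 0.35, and the cytosolic chaperones have a median of −0.12.

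The mean deviation of the 25 acute-phase genes had a Spearman's rho with that of Mt1 and Mt2 of 0.361, 0.452 and 0.675 at 2, 6 and 10 months, and a Pearson's r of 0.338, 0.530 and 0.691. Without the 2 libraries farthest from the median r was 0.325, 0.358 and 0.639. Within sexes rho was 0.105 in females and 0.433 in males at 2 months, 0.402 and 0.520 at 6 months, and 0.540 and 0.786 at 10 months. The male value at 2 months includes the library M5. Without M5 rho over both sexes was 0.309 at that age. Since the genes were chosen in part for this relation, no p-value is given.

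Single livers show both the match and its gaps. The Q80 male M3 of 6 months had the highest Mt1 (179 CPM) and Mt2 (141 CPM) of the males of its age, and also the highest Saa1 (8324 CPM) and Lcn2 (848 CPM), where the male medians were 59.5 and 3.58 CPM. The Q20 male M4 of 10 months had the highest Mt1, Mt2, Saa1 and Lcn2 of the males of that age, at 204, 173, 688 and 37.9 CPM. In both livers metallothionein and acute-phase mRNA peaked together.

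In other livers the highest value of one did not come with the highest of the other. The Q175 male M4 of 2 months had the highest Mt1 and Mt2 of the males of that age (96.01 and 49.5 CPM) with 30.2 CPM of Saa1, where the male median was 22.96 CPM. Its Lcn2 was at 5.83 CPM, above the male median of 1.99 CPM. The Q20 male M1 of 2 months had the highest Saa1 of those males (2125 CPM), with 30.7 CPM of Mt1 and 17.3 CPM of Mt2, both above the male medians of 16.4 and 5.61 CPM. At 6 months the WT female F2 had the highest Saa1 of the females (3084 CPM, median 14.4), with 257 CPM of Mt1 and 51.2 CPM of Mt2, where the female medians were 149 and 56.9 CPM. Among the Q20 females of that age, F1, F3 and F4 had 72.95, 102 and 50.4 CPM of Lcn2 with 560.1, 386 and 273 CPM of Mt1, and F2 had 5.65 CPM of Lcn2 with 207 CPM of Mt1.

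**Figure D5:**
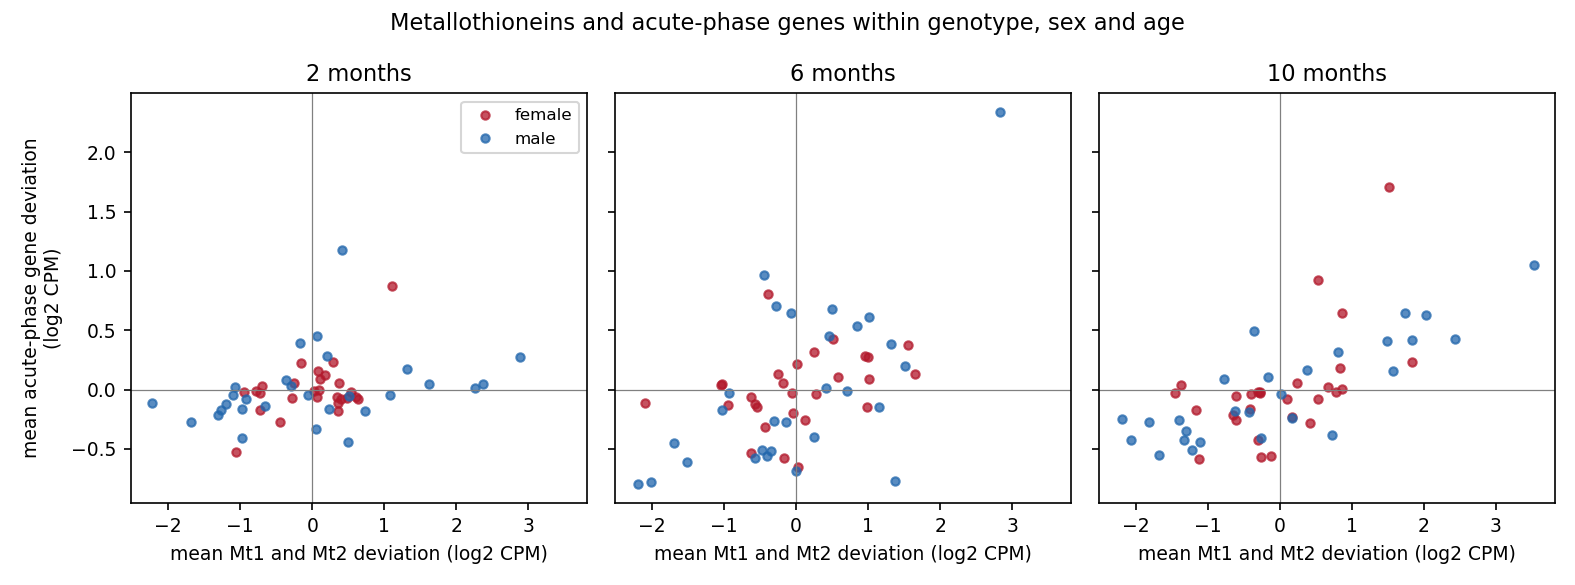
Mean deviation of 25 acute-phase genes against that of Mt1 and Mt2 from the same genotype, sex and age, in log2 CPM, 1 point per library. Spearman's rho is 0.361 at 2 months, 0.452 at 6 months and 0.675 at 10 months.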

How the data were processed

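Liver mRNA of WT and knock-in mice was analysed. The authors deposited 1 table of expected counts and 1 of FPKM per gene for 39179 genes, per the file headers, of which 37607 were matched to a symbol. CASAVA 1.8.2 is named in the submitters' processing notes, while no source used here names the aligner, the counter or the genome build. Of the expected counts 14.1% were not whole, and all were rounded. How reads shared by Mt1 and Mt2 were divided is not known.

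Per age, counts were tested with edgeR 4.0.16 (R 4.3.3) in a quasi-likelihood model of genotype and sex with TMM scaling and the filterByExpr filter, adjusted over the genes of each fit (Benjamini-Hochberg). Ages were tested in 1 model over all libraries. The contrast of the longer repeats weights 5 alleles equally. The steps were tested on simulated data. Alternatives were DESeq2 1.42.0, RLE scaling, no filter, limma 3.58.1 on log2(FPKM + 0.1) and log2(FPKM + 1), a replicate block, each sex alone, the L code of the library name, and fits without single libraries. Fits without the Q80 library M5 were also run, and the interactions, the fits without M5 for the ages and the list counts without it were added after seeing the data. Co-variation was computed on log2 CPM (prior count 2) after subtracting the mean of genotype, sex and age. Permutation p-values planned for list scores are not printed.

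Mt1 and Mt2 and the gene lists were chosen with earlier results of these data known. Named genes are the 10 with the highest and 5 with the lowest rho, and in each list up to 4 genes with the smallest p in a comparison and the 3 with the highest rho. A gene that this rule names is not reported here. Other genes named were chosen after their values were seen. No library columns held identical values.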

Additional observations from a re-analysis of the deposited data

Results flagged for a closer look

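On the log2 scale, Mt1 or Mt2 was tested for a library far from the others in 122 groups of 1 genotype and age, with the sexes together and apart. In 4 of them, each of 1 sex, a library stood apart, where chance gives about 1 in 20 groups. Mt1 was at 32.4 CPM in the Q111 female F3 of 6 months, below the other 3 females, of which the nearest had 129 CPM. Mt2 was at 44.3 CPM in the Q140 female F4 of 2 months, where the nearest female had 90.4 CPM. Mt2 was at 36.3 CPM in the WT male M4 of 2 months, above the other 3 males, of which the nearest had 3.40 CPM. Mt2 was at 7.10 CPM in the Q175 male M3 of 6 months, where the nearest male had 2.60 CPM.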

How the results depend on the processing

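The sex differences of Mt1 and Mt2 kept their direction and their calls at all 3 ages under each alternative run, and the longer repeats lay below Q20 at 6 months in each. Mt2 of Q20 over WT at 6 months, given as a description since these Q20 libraries chose the genes, had a log2 fold change of 1.71 with no low-count filter, 1.61 with the replicate block, 1.13 in females alone, 2.44 in males alone, 1.75 with F1, F3 and F4 of the Q20 females left out, 1.54 with the L code of the library name, and 1.27 to 1.89 over fits that left out 1 library. Mt1 of the longer repeats over WT at 6 months, also a description, was −1.10 in females alone and 0.12 in males alone, where Mt2 was 0.08. The causes were not tested.

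Differences that did not pass changed sign under some settings. For Q20 over WT at 10 months limma gave −0.06 for Mt1 and −0.28 for Mt2 on log2(FPKM + 0.1), and −0.04 and −0.22 on log2(FPKM + 1). The difference of that contrast between females and males was then 0.44 and 0.61, and 0.41 and 0.48. At 2 months Q20 over WT gave 0.21 and 0.25, and 0.20 and 0.19, on those scales, 0.15 and 0.09 with the block, and 0.16 and 0.10 in males alone. The longer repeats over Q20 at 10 months gave 0.10 and 0.39, and 0.10 and 0.36, with limma, and 0.38 and 0.59 in females alone. Over WT at 10 months they gave −0.52 and −0.79 in males alone. At 6 over 2 months Mt1 was 0.01 with no filter and on both FPKM scales, 0.04 with the block, 0.17 in females alone (Mt2 0.08) and 0.03 without the library M5. At 10 over 6 months females alone gave −0.27 and −0.26. Without M5 the difference between the sexes in the longer repeats over WT at 2 months was 0.16 for Mt1.

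Leaving out 1 library gave −0.39 to 1.04 for Mt1 and −0.86 to 1.67 for Mt2 in Q20 over WT at 10 months, −0.15 to 0.38 and −0.35 to 0.27 at 2 months, −0.67 to 0.41 and −0.89 to 0.88 in the longer repeats over Q20 at 10 months, −0.07 to 0.51 and −0.04 to 0.91 over WT at 10 months, and −0.28 to 0.25 for Mt1 over WT at 2 months.

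Genes past the threshold moved as well. In Q20 over WT they numbered 2 with DESeq2, 0 in males alone (237 at an unadjusted p under 0.05) and 0 to 1 over left-out libraries at 10 months, 1 with DESeq2 and 0 to 1 at 2 months, and 3055 in females alone and 1782 in males alone at 6 months. In the longer repeats over Q20 at 10 months they numbered 31 with DESeq2, 1 in females alone, 35 in males alone, 2 with limma at either pseudocount, 9 with no filter, 1 with the block and 1 to 9 over left-out libraries. At 2 months they numbered 5 with DESeq2, 0 in females alone (434 unadjusted), 1 with the block and 1 to 4. At 6 months they numbered 0 in males alone (1672 unadjusted), 36 without those Q20 females and 1128 to 2474. In the longer repeats over WT they numbered 5 with DESeq2, 1 in females alone, 0 in males alone (998 unadjusted) and 9 with no filter at 10 months. At 2 months they numbered 51 with DESeq2, 0 in females alone (1351 unadjusted), 0 in males alone (1388 unadjusted), 3 and 4 with limma and 3 to 21 over left-out libraries, and at 6 months 1937 in males alone. At 6 over 2 months 5002 passed in males alone.

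Without removal of the group means the acute-phase list had a rho with Mt1 and Mt2 of 0.600, 0.516 and 0.561 at 2, 6 and 10 months. Differences of sex and genotype enter these values, and other lists reached a similar size at some ages. The clock genes had 0.558, 0.589 and 0.282, and the NRF2 and oxidative stress list had −0.598, −0.326 and −0.348. The labels do not say that replicate numbers pair the libraries, and not every pair of same-numbered libraries had a correlation over 0.1, so the numbers were not taken as pairs. The median correlation of same-numbered libraries was −0.014, 0.082 and 0.001 at 2, 6 and 10 months, with 56 of 162, 78 of 168 and 53 of 162 pairs over 0.1. Of the libraries, 11 of 56, 29 of 56 and 14 of 55 correlated best with their own number, which at 6 months is a hint from the data. In the library names of that age, most same-numbered libraries of Q175 and Q80, of Q111 and Q140, and of Q20 and Q92 share an LB code. The labels do not say what that code is. The replicate block changed no call of Mt1 or Mt2 among the comparisons tested.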
